A study of Mus musculus with 12 samples.

Results

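The Toll-like receptor family was taken as the 10 genes Tlr1 to Tlr9 and Tlr13, found by their symbols among the 23361 gene symbols of the expression tables. All 10 were present in every table. Expression is given as FPKM, fragments scaled to the length of the transcript and to the mapped fragments of the sample, so levels of different genes are compared per length. Of the 10 genes, 9 reached 1 FPKM in at least 1 sample and entered the test across all rows, and Tlr5 did not.

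Toll-like receptors are the germline-encoded sensors by which macrophages recognize microbial products. TLR1, TLR2, TLR4, TLR5 and TLR6 sit at the cell surface, where TLR2 pairs with TLR1 or TLR6 to bind bacterial lipopeptides, TLR4 binds lipopolysaccharide (LPS) together with MD-2, and TLR5 binds flagellin. TLR3, TLR7, TLR8, TLR9 and TLR13 survey endosomes for nucleic acids: double-stranded RNA, single-stranded RNA, unmethylated CpG DNA and, for TLR13, bacterial ribosomal RNA. All of them pass the signal on through TIR-domain adaptors, MyD88 for most and TRIF for TLR3 and TLR4.

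The cells were bone marrow-derived macrophages (BMDMs) of wild-type mice aged 8 to 12 weeks on the C57BL/6 background, differentiated for 6 days with L929 supernatant as the source of M-CSF. The 4 groups of 3 samples were untreated BMDMs (control), BMDMs kept for 24 h with 20 ng/ml of IL-4 (IL-4), BMDMs exposed to 100 ng/ml of LPS for 3 h (LPS), and BMDMs that received both in turn, IL-4 first (IL-4+LPS). The LPS dose is as the labels give it, and the methods of the study write it in another unit. IL-4 is the cytokine of alternative macrophage polarization, and LPS is the cell wall component that TLR4 recognizes. The methods of the study describe individual animals from independent experiments but do not say which replicate number stands for which, so p-values measure the spread between these samples.

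Depth, recovered from the smallest steps between low values, was about 11000000 to 36900000 fragments per sample. The label of macrophages held: all 7 macrophage marker genes, Adgre1 under its older symbol Emr1, reached 1 FPKM in every group, while Cd79a, Ms4a1, Cd3d, Cd3e, Cd3g and Cd8a stayed below 0.2 FPKM; of the other lymphocyte markers Cd79b reached 4.28 and Cd4 11.7 FPKM. Granulocyte markers were present in every sample, summing to 210.3 to 486.7 FPKM in the 4 samples of replicate 1 and to 270.1 to 974.5 FPKM in those of replicates 2 and 3. Xist was at 0 and Y-linked genes were expressed in all 12 samples, so the X-linked Tlr7, Tlr8 and Tlr13 were compared between male samples. Under LPS the median of all 11191 tested rows shifted by -0.44 on the log2(FPKM + 1) scale, and by -0.41 after IL-4; dividing by sample medians left -0.14 and -0.12. In bulk samples such as these, fewer cells of a type and less RNA per cell cannot be told apart.

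In the mm10 assembly, 2 pairs of the family lie side by side. Tlr1 (chr5:64924680-64933558) and Tlr6 (chr5:64953095-64960034), both on the minus strand, are 19536 bases apart. Their transcripts share 454 words of 50 bases, which is 15.3% of the words of Tlr1 and 12.5% of those of Tlr6. Reads could thus be split between them, which makes both values uncertain to an extent that was not measured. Tlr7 (chrX:167304931-167330528) and Tlr8 (chrX:167242732-167263788), both on the minus strand, are 41142 bases apart and share no such word. Tlr13 (chrX:106143275-106160493, plus strand) stands alone on the same chromosome. Tlr2 (chr3:83836272-83841608, minus strand), Tlr4 (chr4:66827811-66842796, plus strand), Tlr5 (chr1:182954788-182976044, plus strand) and Tlr9 (chr9:106222598-106226876, plus strand) share no 50-base word with another gene. Tlr3 (chr8:45395665-45410539, minus strand) shares 1.56% of its words with Gm45542, a gene on the opposite strand whose exons overlap it, and reads of this stretch cannot be told apart without strand.

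RefSeq promoter windows (GRCm38.p6, 250 bases before to 50 after a transcription start) were held for 8 of the 10 genes, and 10 windows in all. Those below belong to the 4 genes that rose with LPS and to Tlr13, which fell most among the tested members, and each is printed 5′ to 3′ on the gene's own strand from 250 bases before to 20 after its start. Capitals mark matches to an NF-kB consensus in Tlr2 and Tlr3, to the STAT palindrome TTCNNNGAA in Tlr6, and to the PU.1 core GAGGAA in Tlr1 and Tlr13.
Tlr2 (chr3:83841589-83841858, minus): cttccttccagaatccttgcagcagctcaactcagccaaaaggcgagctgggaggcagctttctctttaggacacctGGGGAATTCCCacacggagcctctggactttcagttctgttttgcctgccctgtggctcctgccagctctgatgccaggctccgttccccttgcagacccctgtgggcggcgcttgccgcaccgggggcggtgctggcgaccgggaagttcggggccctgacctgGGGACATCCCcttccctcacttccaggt
Tlr3 (chr8:45410361-45410630, minus): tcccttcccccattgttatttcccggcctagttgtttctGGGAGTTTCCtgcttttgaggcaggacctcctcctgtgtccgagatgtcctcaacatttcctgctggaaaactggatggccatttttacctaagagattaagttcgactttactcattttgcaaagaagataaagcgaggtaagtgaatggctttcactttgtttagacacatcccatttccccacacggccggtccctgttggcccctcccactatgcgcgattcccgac
Tlr1 (chr5:64933539-64933808, minus): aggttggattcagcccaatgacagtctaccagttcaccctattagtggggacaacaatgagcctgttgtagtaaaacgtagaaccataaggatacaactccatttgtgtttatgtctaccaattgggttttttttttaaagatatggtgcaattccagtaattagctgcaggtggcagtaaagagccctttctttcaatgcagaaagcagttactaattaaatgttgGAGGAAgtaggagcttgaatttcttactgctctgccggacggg
Tlr6 (chr5:64960029-64960298, minus): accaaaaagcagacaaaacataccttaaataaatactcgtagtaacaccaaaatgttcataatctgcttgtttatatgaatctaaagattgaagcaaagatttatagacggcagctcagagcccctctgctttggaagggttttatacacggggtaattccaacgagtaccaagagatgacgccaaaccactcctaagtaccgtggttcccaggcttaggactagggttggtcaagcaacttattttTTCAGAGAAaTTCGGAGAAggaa
Tlr13 (chrX:106143025-106143294, plus): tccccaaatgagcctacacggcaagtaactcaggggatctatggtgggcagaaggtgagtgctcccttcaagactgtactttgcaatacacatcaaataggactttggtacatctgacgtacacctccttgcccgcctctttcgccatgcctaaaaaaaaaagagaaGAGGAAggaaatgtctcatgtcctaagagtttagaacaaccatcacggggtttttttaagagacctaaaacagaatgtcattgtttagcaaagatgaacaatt
The Tlr2 window held 3 NF-kB matches, of which GGGGAATTCC and GGGAATTCCC overlap at 173 and 172 bases before the start and GGGACATCCC begins 8 bases before it. Tlr3 held GGGAGTTTCC, beginning 211 bases before its start. Of all 32851 windows of this length, searched on both strands, 8.46% held such a match, 8.3% held the STAT palindrome and 28.3% held the PU.1 core. Among the member windows not printed, the other window of Tlr1 and that of Tlr8 also held the STAT palindrome. Those of Tlr8 and Tlr9 also held the PU.1 core. The STAT6 palindrome with a 4-base spacer was found in 6.95% of all windows and, among the members, in Tlr8, where it overlaps a PU.1 match. The core of an interferon response element was found in 3.44% of all windows and, among the members, in the second window of Tlr6. These matches describe the letters of the windows and are not evidence that a factor bound there.

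In untreated BMDMs 3 endosomal receptor genes, Tlr13, Tlr8 and Tlr7, had the highest mRNA levels. Tlr13 was at 145.6, 120.5 and 123.8 FPKM in control replicates 1, 2 and 3, above every sample of Tlr8 (102.2, 57.7 and 63.1 FPKM), whose range overlapped that of Tlr7 (69.5, 50.5 and 52.8 FPKM). Tlr2 (29.8 ± 4.48 FPKM, SD, n = 3) and Tlr1 (28.6 ± 0.473 FPKM) followed and overlapped each other, and Tlr4 (23.0 ± 1.93 FPKM) lay below every Tlr1 sample but overlapped Tlr2. Tlr9 (15.4 ± 1.75 FPKM) and Tlr6 (13.5 ± 1.34 FPKM) overlapped, Tlr3 was at 2.51 ± 0.537 FPKM, and Tlr5 was the lowest at 0.234 ± 0.0626 FPKM. The 2 other mouse family genes, Tlr11 and Tlr12, which are not among the 10, stayed at or below 0.334 and 0.189 FPKM in all samples.

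**Figure D1:**
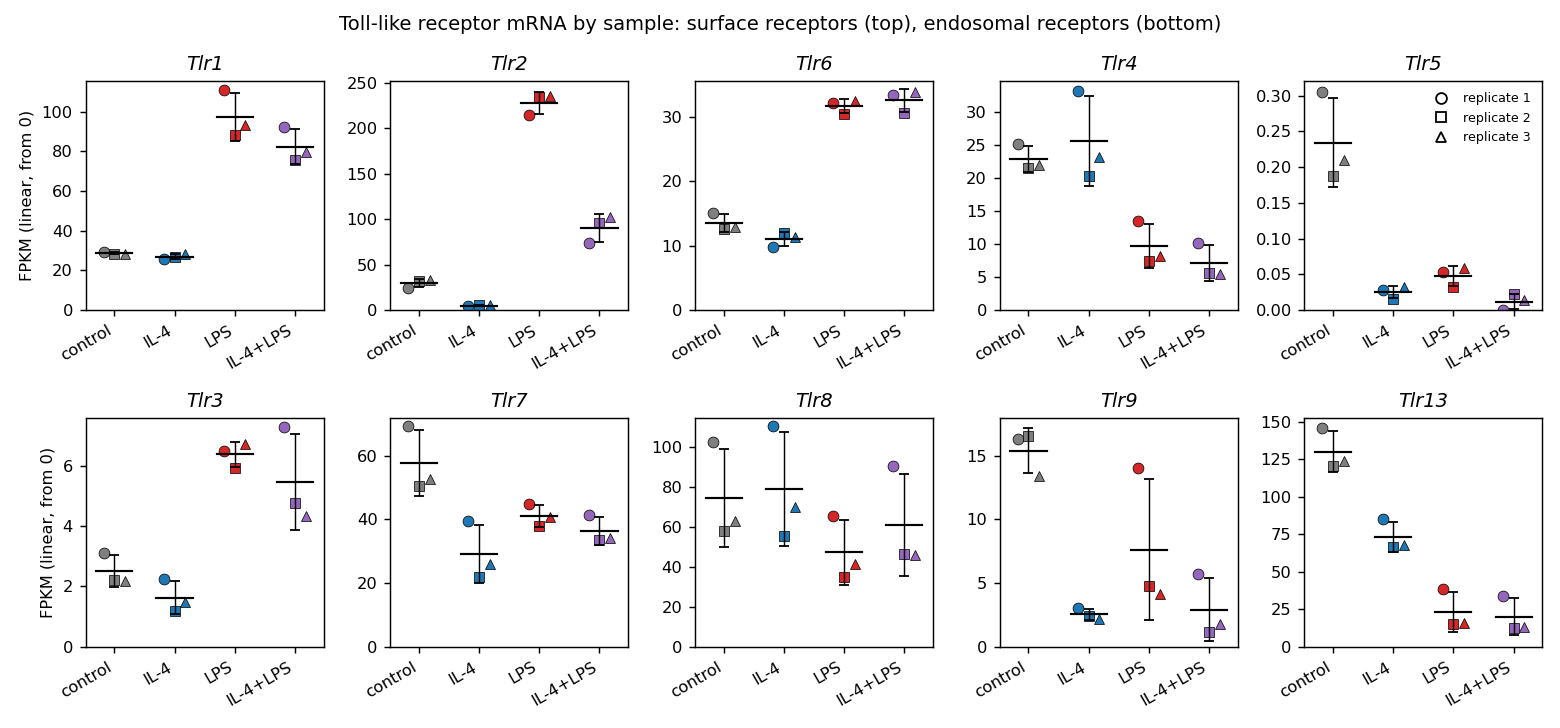
FPKM of each of the 10 Toll-like receptor genes (linear axis from 0, own scale per gene) in the 12 samples; symbols mark replicates 1 to 3, horizontal bars the group mean and whiskers 1 SD (n = 3). Tlr1, Tlr2, Tlr3 and Tlr6 are higher in every LPS sample than in every control sample, Tlr4, Tlr7 and Tlr13 are lower, and replicate 1 is the highest of its group for Tlr4, Tlr7, Tlr8 and Tlr13 throughout.

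LPS changed the order of the family. The TLR2 heterodimer genes Tlr1, Tlr2 and Tlr6 and the RNA sensor Tlr3 rose, while Tlr4, Tlr7, Tlr9 and Tlr13 fell in limma's moderated test (Benjamini-Hochberg adjusted p below 0.05 over all rows). Thus 4 of 9 tested members were higher, where 16.9% of all rows were, and 4 of 9 were lower, where 57.7% of all rows were. The median difference was -0.47 over the members and -0.44 over all rows.

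Tlr2, the common partner in lipopeptide recognition, showed the largest rise among the tested members. It was at 24.6, 32.0 and 32.7 FPKM in control replicates 1 to 3 and at 214.1, 234.4 and 235.3 FPKM with LPS, a 7.66-fold ratio of means, and the groups did not overlap. Its difference on the log2(FPKM + 1) scale, on which all differences below are given, was 2.91 ± 0.15 (standard error, adjusted p = 5.32e-08). Tlr1, which pairs with TLR2 for triacyl lipopeptides, went from 29.1, 28.5 and 28.1 FPKM to 111.1, 88.2 and 93.1 FPKM (1.73 ± 0.10, adjusted p = 1.1e-07). Its neighbour Tlr6, whose product pairs with TLR2 for diacyl lipopeptides, went from 15.0, 12.5 and 13.0 FPKM to 32.1, 30.4 and 32.4 FPKM (1.18 ± 0.09, adjusted p = 8.26e-07). Every LPS sample of these 3 genes lay above every control sample. Tlr3, the double-stranded RNA receptor, rose from a low level, 3.12, 2.22 and 2.17 FPKM, to 6.49, 5.93 and 6.74 FPKM (1.08 ± 0.19, adjusted p = 0.000359), again without overlap. The share of all rows without overlap between groups was not computed for any comparison, so a lack of overlap does not set these genes apart.

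Tlr4, the receptor for LPS itself, fell. Its control samples were at 25.2, 21.6 and 22.1 FPKM and its LPS samples at 13.5, 7.51 and 8.15 FPKM, a 2.36-fold lower mean (-1.20 ± 0.26, adjusted p = 0.00166). Replicate 1 kept the highest level in both groups, yet all 3 LPS samples lay below the controls. Tlr13, the sensor of bacterial ribosomal RNA and the most abundant member in untreated cells, fell furthest among the tested members, to 38.6, 15.0 and 15.9 FPKM, a 5.62-fold lower mean (-2.57 ± 0.40, adjusted p = 0.000155).

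The falls of the other endosomal receptors were smaller or less certain. Tlr7, a single-stranded RNA sensor, went from 69.5, 50.5 and 52.8 FPKM to 44.7, 38.0 and 40.6 FPKM, with no overlap (-0.47 ± 0.19, adjusted p = 0.0484). This difference was close to the shift of the median row, and it was -0.10 (adjusted p = 0.668) when samples were scaled by their medians. Tlr9, the CpG DNA receptor, went from 16.3, 16.5 and 13.4 FPKM to 14.0, 4.77 and 4.11 FPKM (-1.10 ± 0.45, adjusted p = 0.0436). Replicate 1 of LPS reached into the control range, and the difference within replicate numbers was -0.20 for 1 against -1.60 and -1.49 for 2 and 3. The calls of Tlr7 and of Tlr9 were each lost in 9 of the 12 fits that left out 1 sample, with adjusted p up to 0.176 and 0.158. Tlr8 was at 65.3, 34.7 and 41.5 FPKM with LPS, overlapping the controls, and was not called (-0.65, 95% confidence interval -1.43 to 0.14, adjusted p = 0.119). Its differences within replicate numbers 1, 2 and 3 were alike, at -0.64, -0.72 and -0.59. With replicate number as a block in limma Tlr8 was called (adjusted p = 4.05e-05), though the numbers are not known to be pairs.

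**Figure D2:**
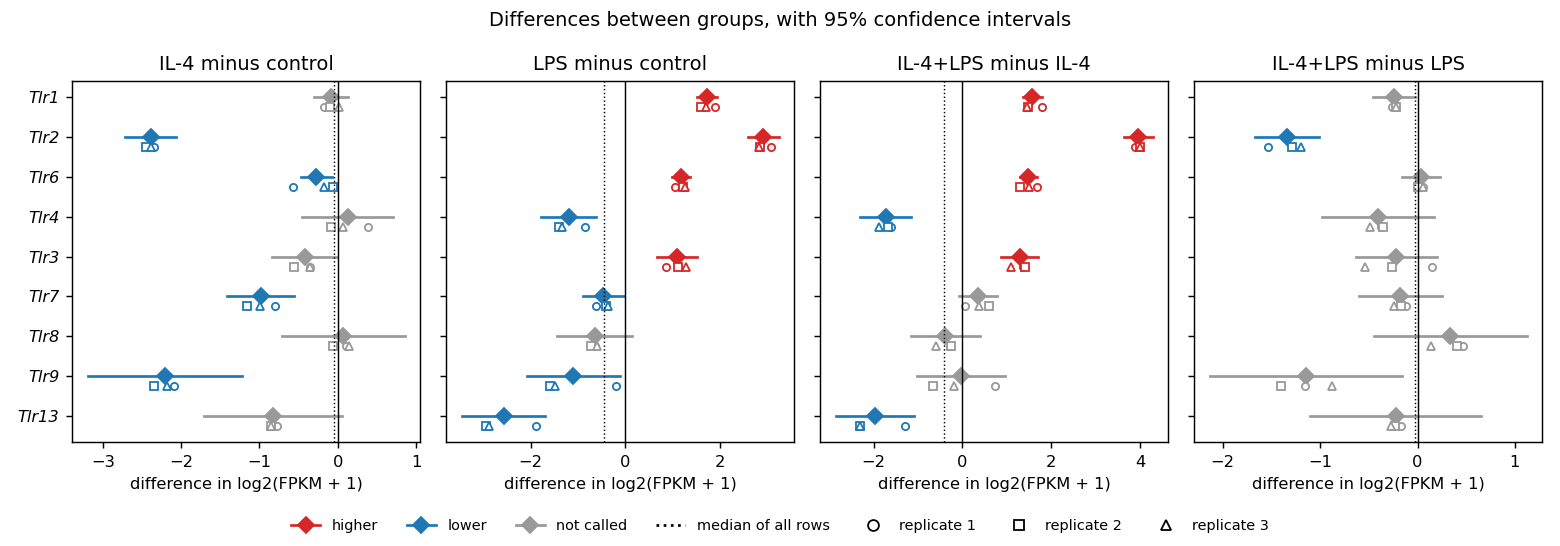
Differences in log2(FPKM + 1) between groups for the 9 tested genes in 4 comparisons: diamonds are limma estimates with 95% confidence intervals, coloured by call (adjusted p below 0.05), small symbols are differences between samples of the same replicate number, and the dotted line is the median of all 11191 rows. Tlr2 is lower with IL-4, with and without LPS, and has the largest rise with LPS in both LPS comparisons.

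IL-4 alone lowered 4 members and raised none. The 4 were Tlr2, Tlr9, Tlr7 and Tlr6, so 4 of 9 members were lower where 21.0% of all rows were, and 0 of 9 were higher where 16.0% of all rows were. At an unadjusted p below 0.05 the count of higher members was also 0, as it was with the per-gene Tukey test. The share of all rows was not computed for these settings. The median difference was -0.42 over the members and -0.05 over all rows. This comparison uses the same 3 control samples as the LPS comparison above.

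Among the 9 tested members, Tlr2 and Tlr9 changed most with IL-4 on the log2 scale. Tlr2 fell to 4.04, 5.05 and 5.48 FPKM, a 6.13-fold lower mean (-2.39 ± 0.15, adjusted p = 1.15e-06). Tlr9 fell to 3.05, 2.45 and 2.18 FPKM, a 6.02-fold lower mean (-2.21 ± 0.45, adjusted p = 0.00322). For both genes every IL-4 sample was far below the lowest control sample. Tlr7 fell to 39.5, 22.0 and 26.0 FPKM, a 1.98-fold lower mean (-0.99 ± 0.19, adjusted p = 0.00275). Tlr6 was at 9.78, 11.9 and 11.3 FPKM, a small difference (-0.27 ± 0.09, adjusted p = 0.0341) that was -0.12 (adjusted p = 0.161) in replicates 2 and 3 alone and lost its call in 4 of the 12 fits without 1 sample.

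The remaining members were not called with IL-4. Tlr13 was at 84.9, 66.4 and 67.9 FPKM, below every control sample and 1.78-fold lower in the mean, with a wide interval (-0.83, -1.71 to 0.05, adjusted p = 0.132). In replicates 2 and 3 alone, with 2 samples per group, the same difference was -0.85 with an adjusted p of 2.66e-05. This subset leaves out replicate 1, which stood apart in these same data, so its p-values understate the spread between samples. Tlr3 was at 2.23, 1.18 and 1.48 FPKM (-0.42, -0.84 to -0.01, adjusted p = 0.106). With replicate number as a block in limma Tlr13 and Tlr3 were called (adjusted p = 0.019 and 0.0163), though the numbers are not known to be pairs. Tlr1 stayed near its control level at 25.7, 26.5 and 28.4 FPKM, and its interval, -0.30 to 0.13, was the narrowest of those not called. Tlr4 was at 33.3, 20.4 and 23.2 FPKM (0.13, -0.45 to 0.70) and Tlr8 at 110.4, 55.5 and 70.0 FPKM (0.07, -0.72 to 0.85), both overlapping the controls.

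After IL-4, LPS again raised Tlr1, Tlr2, Tlr3 and Tlr6 and lowered Tlr4 and Tlr13. Against 15.0% and 57.9% of all rows, 4 of 9 members were higher and 2 of 9 were lower when IL-4+LPS was set against IL-4, with a median difference of 0.34 over the members and -0.41 over all rows. The call was the same with and without IL-4 for 7 of the 9 members. The share of all rows with the same call was not computed. These comparisons share no sample, but both use 1 estimate of the spread from all 12 samples. Tlr2 rose from 4.04, 5.05 and 5.48 FPKM to 73.4, 95.2 and 102.3 FPKM (3.96 ± 0.15, adjusted p = 7.79e-09). Tlr1 reached 92.1, 75.5 and 79.5 FPKM (1.58 ± 0.10), Tlr6 reached 33.3, 30.5 and 33.7 FPKM (1.48 ± 0.09) and Tlr3 reached 7.28, 4.76 and 4.33 FPKM (1.29 ± 0.19). All IL-4+LPS samples of these genes were above all IL-4 samples. Tlr13 fell to 34.1, 12.5 and 13.0 FPKM (-1.97 ± 0.40, adjusted p = 0.0011) and Tlr4 to 10.2, 5.64 and 5.54 FPKM (-1.73 ± 0.26, adjusted p = 0.00015).

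Tlr7, Tlr8 and Tlr9 were not called in this comparison. Tlr7 was at 41.3, 33.6 and 34.2 FPKM in IL-4+LPS, a difference of 0.34 (-0.09 to 0.77, adjusted p = 0.131), which became 0.70 (adjusted p = 0.0109) with samples scaled by their medians. Tlr9 was at 5.75, 1.19 and 1.78 FPKM (-0.04, -1.02 to 0.95, adjusted p = 0.948), a difference whose sign changed with scaling, and replicate 1 lay above its IL-4 counterpart (0.74) while replicates 2 and 3 lay below (-0.66 and -0.19). Tlr8 was at 90.5, 46.3 and 45.6 FPKM (-0.38, -1.17 to 0.40).

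Under LPS, pretreatment with IL-4 left Tlr2 lower than LPS alone. With IL-4+LPS set against LPS, 1 member of 9 was lower, where 15.8% of all rows were. Of the 9, 0 were higher, where 15.0% of all rows were. The unadjusted p gave 3 lower and 0 higher, and the Tukey test also gave 0 higher. For these settings the share of all rows was not computed, so the counts cannot be set against it. The 1 lower member was Tlr2. Its mean of 90.3 ± 15.0 FPKM was 2.53-fold below that of LPS alone, 227.9 ± 12.0 FPKM (-1.34 ± 0.15, adjusted p = 6.66e-05), and the groups did not overlap. Its partners differed less. Tlr1 was at 82.4 ± 8.68 against 97.4 ± 12.1 FPKM (-0.24, -0.45 to -0.02, adjusted p = 0.0884), lower in each of the 3 replicate numbers, and Tlr6 was at 32.5 ± 1.76 against 31.6 ± 1.08 FPKM (0.04, -0.16 to 0.23, adjusted p = 0.798). In this comparison 6 of the 9 members were lower in each of the 3 replicate numbers.

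Tlr9 was lower in IL-4+LPS in each replicate number too, with differences of -1.15, -1.40 and -0.88, and its mean was 2.62-fold lower, but the samples of the groups overlapped and it was not called (-1.14, -2.13 to -0.16, adjusted p = 0.0768). Over the 12 fits that each left out 1 sample the difference ran from -1.63 to -0.655, with adjusted p from 0.0104 to 0.252. Only the fit without replicate 1 of IL-4+LPS gained a call. In replicates 2 and 3 alone, with 2 samples per group, the difference was -1.14 (adjusted p = 0.00123). Tlr8 was the member that was higher in each replicate number by the most, 0.46, 0.41 and 0.14 (0.34, -0.45 to 1.12, adjusted p = 0.523). For Tlr3, Tlr4, Tlr7 and Tlr13 the estimates were -0.22, -0.40, -0.18 and -0.23, with adjusted p from 0.278 to 0.717. Over the members the median was -0.23 and over all rows -0.03. In replicates 2 and 3 alone 6 members were lower, Tlr1, Tlr2, Tlr3, Tlr4, Tlr9 and Tlr13, where 25.9% of all rows were. Replicate 1 was left out with its values known, so the calls of this subset do not include the spread it adds.

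The LPS response itself differed with IL-4 for Tlr2. The interaction, the LPS difference after IL-4 minus that without it, was 1.05 ± 0.21 for Tlr2 (adjusted p = 0.0104), and 0.81, 1.16 and 1.19 within replicates 1, 2 and 3. On the linear scale the order was the opposite: Tlr2 gained 198.2 FPKM with LPS alone and 85.4 FPKM after IL-4, although the fold was 7.66 and 18.6. Of 9 members 1 had a higher interaction, where 4.58% of all rows did, and 0 had a lower one, where 4.63% of all rows did. At an unadjusted p below 0.05 these were 3 and 0, a setting for which the share of all rows was not computed. Tlr7 had an interaction of 0.81 ± 0.27 (adjusted p = 0.0966) with the same sign in 3 of 3 replicate numbers, and Tlr6 one of 0.31 ± 0.13 (adjusted p = 0.16). Every tested member but Tlr3 and Tlr8 had the same sign in 3 of 3. In replicates 2 and 3 alone Tlr7, Tlr9 and Tlr13 were also higher, at 0.87, 1.12 and 0.60, and Tlr4 was lower, at -0.41, where 13.2% of all rows were higher and 12.4% lower. Replicate 1 was left out with its values known, so these calls do not include the spread it adds. The standard error of Tlr13 was 0.561 with all samples and 0.064 in this subset. For Tlr1, whose interaction was -0.15, the interval ran from -0.46 to 0.15.

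Tlr5, the flagellin receptor, was too low for the test, but its FPKM corresponded to whole fragments within 0.008 of a fragment. Control replicates 1, 2 and 3 held 11, 9 and 25 fragments (0.305, 0.187 and 0.21 FPKM). The IL-4 samples held 1, 1 and 2 fragments (0.0279, 0.0156 and 0.0319 FPKM), the LPS samples 2, 3 and 3 (0.0538, 0.0319 and 0.0582 FPKM), and the IL-4+LPS samples 0, 1 and 1 (0, 0.0219 and 0.0141 FPKM). Every control sample was above every treated one. Per unit of depth the control group held 9.01 times as many fragments as IL-4 (95% exact interval 3.29 to 34.5), 5.06 times as many as LPS (2.36 to 12.4) and 16.9 times as many as IL-4+LPS (4.41 to 144.0). These intervals cover counting error only, since the samples of a group were pooled for them. With no filter on low values limma gave Tlr5 a difference of -0.24 with LPS (adjusted p = 0.000231) and of -0.27 with IL-4 (adjusted p = 0.000481), on a scale where 1 is added to an FPKM that never passed 0.305.

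Summed over the family, the balance between surface and endosomal receptors moved with LPS. The 5 surface receptor genes summed to 94.2, 94.8 and 96.1 FPKM in control and to 72.9, 63.9 and 68.4 FPKM with IL-4. With LPS the sums were 370.8, 360.5 and 369.0 FPKM, and IL-4+LPS samples gave 209.1, 206.9 and 221.0 FPKM. As a share of all 10 genes, control had 25.6% ± 3.27 and IL-4 had 27.5% ± 3.70, whereas LPS had 74.8% ± 5.37 and IL-4+LPS had 63.6% ± 8.42 (SD, n = 3). The sum of the 5 endosomal genes was 279.8 ± 49.4 FPKM in control and 185.1 ± 48.7 FPKM with IL-4, and both LPS-treated groups had a mean of 125.4 FPKM (SD 38.2 without and 46.3 with IL-4). Replicate 1 had the lowest surface share in each group, 21.9% in control and 68.7% in LPS. These sums are descriptions and were not tested.

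**Figure D3:**
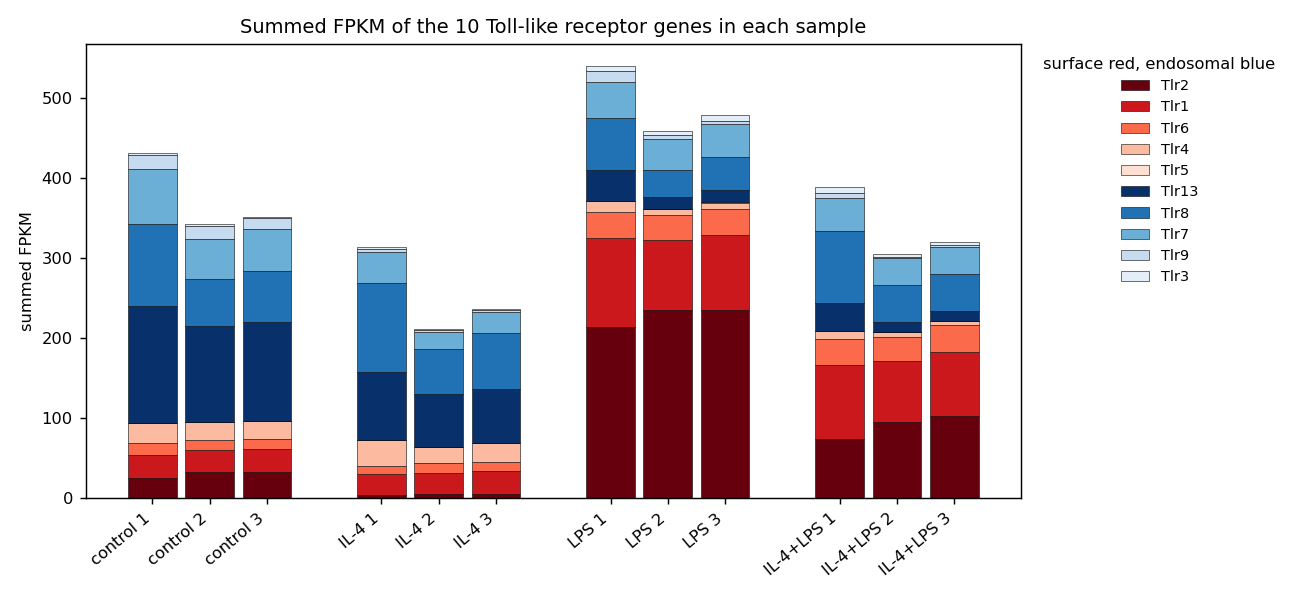
Summed FPKM of the 10 Toll-like receptor genes in each of the 12 samples (linear axis from 0), surface receptors in red and endosomal receptors in blue. Surface receptors make up 25.6% of the sum in control and 74.8% in LPS on average, and the Tlr2 segment is smaller in every IL-4+LPS sample than in every LPS sample.

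The order of the members differed between the treated groups. In IL-4, Tlr8 (78.7 ± 28.5 FPKM) and Tlr13 (73.1 ± 10.3 FPKM) led with overlapping ranges, Tlr7, Tlr1 and Tlr4 overlapped one after the other, and Tlr6, Tlr2 and then Tlr9 with Tlr3 followed. In LPS, Tlr2 lay above Tlr1 and Tlr1 above Tlr8 without overlap, whereas Tlr8 overlapped Tlr7, and at the low end Tlr4 overlapped Tlr9, which overlapped Tlr3. In IL-4+LPS, Tlr2 overlapped Tlr1 and Tlr1 overlapped Tlr8. Tlr5 was last in all 4 groups.

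Genes that act with the receptors were read from 5 lists of 47 genes, of which 44 were tested. With LPS, 16 of the 44 were higher and 17 lower, where 16.9% and 57.7% of all rows were. With IL-4, 8 were higher and 17 lower, where 16.0% and 21.0% of all rows were. With LPS after IL-4, 16 were higher and 19 lower (15.0% and 57.9% of all rows), and for IL-4+LPS against LPS 8 were higher and 16 lower (15.0% and 15.8% of all rows). The interaction was higher for 2 and lower for 3 of the 44, where 4.58% and 4.63% of all rows were. Among the coreceptors, 2 of 5 tested were higher and 3 lower with LPS (16.9% and 57.7% of all rows), and 1 was higher and 4 lower with IL-4 (16.0% and 21.0%). For IL-4+LPS against LPS, 2 were higher and 2 lower (15.0% and 15.8%). Cd14, which hands LPS to TLR4 and MD-2, had control and IL-4 means of 153.4 ± 9.38 and 15.6 ± 3.19 FPKM (-3.23 ± 0.17, adjusted p = 4.47e-07). With LPS its mean was 1271 ± 102.2 FPKM (3.04 ± 0.17 over control, adjusted p = 1.14e-07), against 265.6 ± 59.8 FPKM for IL-4+LPS (-2.28 ± 0.17, adjusted p = 4.6e-06). Cd180, a TLR4 homologue without a TIR domain, was lower with LPS (-0.98 ± 0.13, adjusted p = 5.4e-05). Ly86, which encodes MD-1, the partner of CD180, was lower with IL-4 (-0.89 ± 0.20, adjusted p = 0.00618). Cd36, a scavenger receptor that assists TLR2 with TLR6, was higher for IL-4+LPS when set against LPS (0.77 ± 0.14, adjusted p = 0.0018).

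Of the 11 genes for traffic and processing of Toll-like receptors, not all of them particular to endosomal ones, 1 was higher and 9 were lower with LPS, where 16.9% and 57.7% of all rows were. Cnpy3, a chaperone cofactor of Toll-like receptors, fell from 73.2 ± 4.18 to 25.6 ± 2.29 FPKM (-1.48 ± 0.10, adjusted p = 3.34e-07) and Cnpy4 from 11.7 ± 0.215 to 4.06 ± 0.575 FPKM (-1.34 ± 0.16, adjusted p = 2.27e-05). With IL-4, 3 were higher and 4 lower (16.0% and 21.0% of all rows), among them Hsp90b1, the chaperone gp96 (0.80 ± 0.11, adjusted p = 0.000306), and Slc15a4, an endolysosomal transporter (-0.75 ± 0.09, adjusted p = 0.000157). In IL-4+LPS against LPS, 4 were higher and 2 lower (15.0% and 15.8% of all rows). Ctsl and Ctss, cathepsins that cleave endosomal receptors, were higher by 0.94 ± 0.07 (adjusted p = 5.15e-06) and 0.86 ± 0.17 (adjusted p = 0.00326).

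The TIR adaptors link the receptors to their kinases. With LPS 4 of 5 tested were higher and 0 lower, where 16.9% and 57.7% of all rows were. With IL-4 1 was higher and 2 were lower (16.0% and 21.0% of all rows), and in IL-4+LPS against LPS 0 were higher and 5 lower (15.0% and 15.8%). Myd88 had means of 51.9 ± 4.70 FPKM for control and 37.1 ± 2.73 for IL-4, and of 185.9 ± 17.2 for LPS and 129.2 ± 19.5 for IL-4+LPS. Pik3ap1, which encodes the adaptor BCAP, was at 197.5 ± 3.17, 89.5 ± 5.73, 330.0 ± 10.2 and 156.3 ± 6.36 FPKM in the same order of groups. With LPS the differences were 1.82 ± 0.12 for Myd88 (adjusted p = 3.44e-07) and 0.74 ± 0.06 for Pik3ap1 (adjusted p = 1.67e-06), and with IL-4 they were -0.47 ± 0.12 (adjusted p = 0.0115) and -1.13 ± 0.06 (adjusted p = 5.19e-07). The difference between IL-4+LPS and LPS was -1.07 ± 0.06 for Pik3ap1 (adjusted p = 8.54e-07) and -0.73 ± 0.20 for Ticam2, the adaptor TRAM (adjusted p = 0.0183).

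Below the adaptors, 6 of 15 kinases and ubiquitin ligases were higher and 3 lower with LPS, where 16.9% and 57.7% of all rows were. With IL-4, 1 was higher and 5 lower (16.0% and 21.0% of all rows), and 0 were higher and 5 lower in IL-4+LPS against LPS (15.0% and 15.8%). Peli1, an E3 ligase, rose from 7.89 ± 0.813 to 114.3 ± 13.4 FPKM (3.69 ± 0.12, adjusted p = 3.85e-09) and the kinase gene Irak2 from 11.6 ± 0.774 to 74.5 ± 0.124 FPKM (2.59 ± 0.11, adjusted p = 2.09e-08). Ikbke was lower with IL-4 (-1.16 ± 0.13, adjusted p = 6.28e-05) and lower again when IL-4 preceded LPS (-1.12 ± 0.13, adjusted p = 8.19e-05), and Tab2, a subunit of the TAK1 kinase complex, was lower in the same comparisons (-0.58 ± 0.14, adjusted p = 0.00791, and -0.63 ± 0.14, adjusted p = 0.00588).

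Of 8 tested inhibitors, 3 were higher and 2 lower with LPS, where 16.9% and 57.7% of all rows were. With IL-4 2 were higher and 2 lower (16.0% and 21.0% of all rows), as in IL-4+LPS against LPS (15.0% and 15.8%). Tnfaip3, which encodes the deubiquitinase A20, was higher with LPS (4.87 ± 0.29, adjusted p = 1.5e-07), and Il1rl1, the IL-33 receptor, was higher with IL-4 (1.32 ± 0.14, adjusted p = 6.35e-05). Socs1, a suppressor of cytokine signalling, went from 0.829 ± 0.373 FPKM in control to 31.5 ± 1.56 with IL-4, and was at 58.5 ± 19.8 with LPS alone and 114.2 ± 35.6 after both. Its differences were 4.17 ± 0.29 with IL-4 (adjusted p = 2.55e-06), 4.98 ± 0.29 with LPS (adjusted p = 1.36e-07) and 0.96 ± 0.29 for IL-4+LPS against LPS (adjusted p = 0.0278). Irak3, which encodes the inhibitory kinase IRAK-M, was at 60.9 ± 4.49 FPKM with LPS alone and 16.6 ± 0.566 after both (-1.81 ± 0.09, adjusted p = 3.92e-07). The 2 genes of the lists with a higher interaction were Cd14 (0.95 ± 0.24, adjusted p = 0.0349) and Cd180 (1.03 ± 0.18, adjusted p = 0.00632). The 3 with a lower one were Socs1 (-3.21 ± 0.41, adjusted p = 0.00102), Ticam1, the adaptor TRIF (-0.70 ± 0.13, adjusted p = 0.00745), and Irak3 (-0.64 ± 0.13, adjusted p = 0.0132). For Cd14 and Socs1 the order was the opposite on the linear scale. With LPS the mean of Cd14 rose from 153.4 to 1271 FPKM without IL-4 and from 15.6 to 265.6 FPKM after it. That of Socs1 rose from 0.829 to 58.5 FPKM without IL-4 and from 31.5 to 114.2 FPKM after it. For Cd180, Ticam1 and Irak3 the order was the same on both scales.

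Much of the spread within groups lay between replicate 1 and the other samples. For Tlr4, Tlr7, Tlr8 and Tlr13 replicate 1 was the highest sample in 4 of 4 groups, and for Tlr2 it was the lowest in 4 of 4. The ratio of replicate 1 to the mean of replicates 2 and 3 was 1.69 to 1.97 for Tlr8 in the 4 groups, and for Tlr13 it was 1.19 in control and 1.26 in IL-4 against 2.51 and 2.67 in the groups given LPS. Tlr9 showed the same split, with 1.09 and 1.32 without LPS and 3.15 and 3.88 with it. Replicate 1 had the lowest granulocyte marker sum of its group both with and without LPS. Its sums of Y-linked genes were higher, 53.8 to 63.6 FPKM against 22.7 to 44.2 FPKM in the other samples. The part of these markers in the values above was not tested. In replicates 2 and 3 alone the LPS differences of Tlr13 and Tlr4 were -2.91 and -1.37, and that of Tlr8 was -0.66 with an adjusted p of 0.00255. Replicate 1 was left out with these values known, so p-values of this subset do not include the spread it adds.

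**Figure D4:**
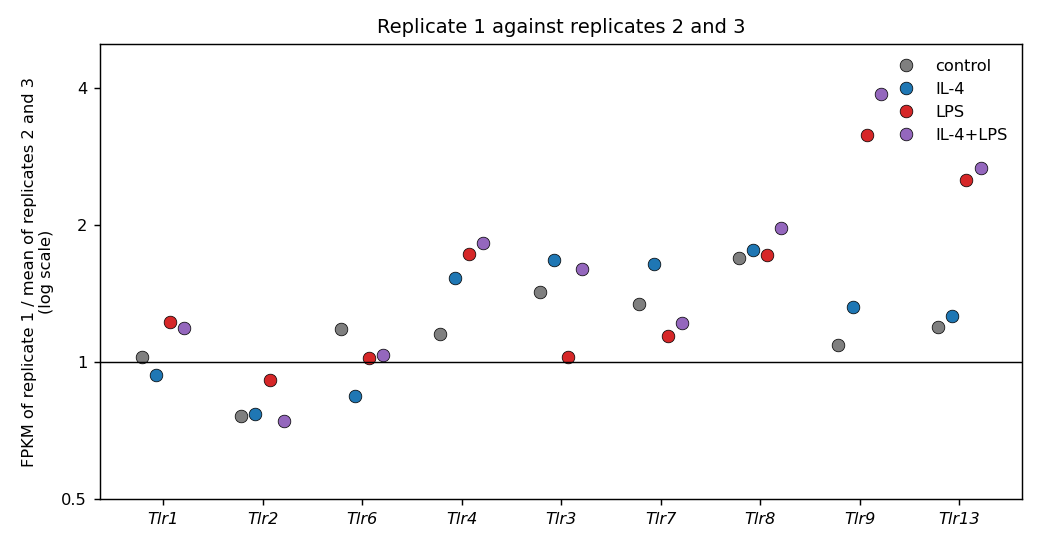
FPKM of replicate 1 divided by the mean of replicates 2 and 3 (log axis) for the 9 tested genes in the 4 groups. Tlr4, Tlr7, Tlr8 and Tlr13 lie above 1 in all groups and Tlr2 lies below 1, and for Tlr9 and Tlr13 the ratio is larger in both groups with LPS, up to 3.88 and 2.67.

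Across the 12 samples the members fell into patterns that can be described by Pearson's r of log2(FPKM + 1), with the 4 treatments shared by all points. Tlr1 and Tlr6, which share part of their sequence, had an r of 0.978, Tlr1 and Tlr3 0.936, Tlr1 and Tlr2 0.893, and Tlr4 and Tlr13 0.944. Tlr7 went with Tlr9 (0.813) and not with its chromosomal neighbour Tlr8 (0.335). Among 7218 other rows with a mean of at least 5 FPKM, the profile nearest to Tlr2 was that of Itgal (0.997), followed by Camk2d (0.993), that nearest to Tlr1 was Cd69 (0.996), followed by Lacc1 (0.994), and that nearest to Tlr13 was Apobec1 (0.998), followed by Rabgap1 (0.994). Rasa1 (0.988) and Osbpl9 (0.986) were nearest to Tlr4, Cflar (0.990) was close to Tlr6, and Zfp217 (0.981) and Akr1b8 (0.967) were nearest to Tlr9. Gm5431 (0.990) and Slfn10-ps (0.988) were nearest to Tlr3, Rps15a-ps4 (0.968) and Brcc3 (0.966) to Tlr8, and Herc4 (0.929) and Abca1 (0.925) to Tlr7, whose nearest profiles were the least alike.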

How the data were processed

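Poly(A)-selected RNA was sequenced as paired reads. The authors aligned them to mm10 with TopHat2 2.0.7 and computed FPKM with Cufflinks 2.0.2 (versions from the submitters' processing notes), and deposited 1 table of 23847 rows per sample; the strand setting is not given in the sources used here. No counts were used, so depth rests on steps between low FPKM values.

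The 12 tables were joined by row. Rows with at least 1 FPKM in at least 1 sample (11191) were fitted as log2(FPKM + 1) with limma 3.58.1 in R 4.3.3: group means over all 12 samples, eBayes with an intensity trend, Benjamini-Hochberg adjustment within each of 5 contrasts, two-sided, threshold 0.05. Fold differences on this scale understate changes of low genes. The procedure was tested on simulated data with independent noise and few changed rows. With LPS most rows of the real data were called, a case that the simulation does not cover. Positions and shared 50-base words came from GENCODE vM21 (GRCm38, which is mm10), and promoter windows from RefSeq.

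The members, gene lists and alternatives were chosen with earlier results of these data known. Named genes were all members in every contrast, the 2 largest called differences per pathway list (for LPS after IL-4 given as counts alone), Tlr11 and Tlr12 by level, and the 2 rows most correlated with each tested member. Of the genes so chosen, 1 correlated row and 1 cell marker are not reported here. Lbp, Sarm1 and Sigirr were under the filter. Alternatives covered pseudocount, filter, scaling, variance model, samples fitted, replicate block, threshold, a per-gene Tukey test and left-out samples.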

Additional observations from a re-analysis of the deposited data

Results flagged for a closer look

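The response of Tlr2 to LPS differed between cells with and without IL-4 by the test of the difference itself, with an interaction of 1.05 on the log2(FPKM + 1) scale (standard error 0.21, limma adjusted p = 0.0104, the same sign in 3 of 3 replicate numbers). Every other tested member but Tlr3 and Tlr8 also had the same sign in 3 of 3, so the sign does not set Tlr2 apart. The interaction of Tlr2 ranged from 0.95 to 1.19 when each of the 12 samples was left out, with adjusted p of at most 0.0314. With a pseudocount of 0.1 it was 1.24. In the same samples Tlr2 gained 198.2 FPKM with LPS alone and 85.4 FPKM after IL-4, so the direction of the difference depends on whether it is read as a fold or as an amount.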

How the results depend on the processing

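Of 1062 values recomputed under other settings, 967 (91.1%) kept their direction and call, 42 lost a call, 39 gained one and 14 changed sign. Several settings, such as the unadjusted p, the 2-fold minimum and the Tukey test, keep the same estimate, so its direction could not change there. Many values were differences that were not called in either fit. The percentage therefore does not measure how firm the calls are. The calls of Tlr1, Tlr2, Tlr3, Tlr4, Tlr6 and Tlr13 in both LPS comparisons, and of Tlr2, Tlr7 and Tlr9 with IL-4, held in every fit that left out 1 sample. The cause of the changes below was not tested.

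The count of members lower with LPS, 4, was 2 with quantile normalization, with median scaling and with the per-gene Tukey test, and 2 to 3 in the 12 fits that each left out 1 sample. With a 2-fold minimum, 2 members were lower with IL-4. The interaction was higher for 2 members with no filter on low values, Tlr2 and Tlr5, and for 3 by unadjusted p, which also gave 3 lower members for IL-4+LPS against LPS. Replicates 2 and 3 alone gave 4 lower for IL-4+LPS against IL-4 (63.8% of all rows), 6 lower against LPS (25.9%), and interactions higher for 4 (13.2%) and lower for 1 (12.4%). These calls do not include the spread that the left-out replicate adds. Without single samples, 1 to 3 members were lower for IL-4+LPS against LPS and 1 to 2 had a higher interaction. Apart from replicates 2 and 3 alone, the share of all rows was not computed for the settings of this paragraph.

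Same-numbered samples deviated from their group means with a mean r of 0.124 (0.0024 to 0.386; 11 of 18 pairs over 0.1), and 9 of 12 samples correlated best with their own number. This is a hint from the data, not the design. Neither the labels nor the methods tie a number to an animal or experiment, so the main fit did not take the numbers as pairs. If they are pairs, the main fit overstates the spread of genes in which replicate 1 stood apart. With the replicate block, 5 members were lower with LPS (62.7% of all rows), the gained one being Tlr8 (-0.65, adjusted p = 4.05e-05), and 6 were lower with IL-4 (28.4%), the gained ones being Tlr3 and Tlr13 (adjusted p = 0.0163 and 0.019). For IL-4+LPS against IL-4, 5 were higher (17.2%) and 3 lower (64.4%), with Tlr7 and Tlr8 gained. For IL-4+LPS against LPS, 4 were lower (23.8%) and 1 higher (20.4%), and the interaction was higher for 2 (10.2%).

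Sign changes were of differences that were not called. Tlr8 with IL-4 was -0.026 with quantile normalization and -0.20 to 0.32 without single samples. Tlr4 with IL-4 was -0.008 in replicates 2 and 3 alone and -0.074 to 0.268 without single samples. Tlr9 in IL-4+LPS against IL-4 was 0.46 with quantile normalization, 0.21 with median scaling and -0.52 to 0.29 without single samples. Tlr13 in IL-4+LPS against LPS was -0.68 to 0.20, and the interaction of Tlr8 was -0.054 to 0.538, without single samples. The fewest fragments of a tested member in a sample, about 58.6, were those of Tlr9 in replicate 2 of IL-4+LPS.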
